A study of Homo sapiens with 14 samples.

Results

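The genes described here are 10 cell surface molecules of costimulation and immune checkpoints, read from chromatin accessibility in 2 human multiple myeloma (MM) cell lines. They are CD28, CD80, CD86, CD274, PDCD1LG2, CD70, CD27, ICOSLG, CD40 and CD47, taken by name out of 20033 protein-coding genes. For each, every accessible region (peak) overlapping the gene body or the 50 kb on either side was collected. This window held 94 of 72802 peaks in MM.1S and 99 of 79969 peaks in RPMI8226. The genes were named without a rule on measured values, though earlier results of these data were known.

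MM cells of both lines were grown alone (MONO) or in coculture with HS5, a human bone marrow stromal line. Coculture cells came from the upper transwell (TSW), behind a membrane, or from the lower chamber (CO), in contact with HS5. MM.1S had 3 MONO, 3 TSW and 3 CO libraries, and RPMI8226 had 1 MONO, 2 TSW and 2 CO libraries. Accessibility was profiled by Omni-ATAC, in which a transposase cuts and tags open chromatin. The CO cells were sorted from the stromal cells, and by the study's methods a small number of HS5 cells remained in them.

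A T cell that meets its antigen needs a further signal through CD28, which binds CD80 or CD86 on the presenting cell. CTLA4 competes for the same ligands, and PD-1 (PDCD1) on T cells is engaged by the inhibitory ligands PD-L1 (CD274) and PD-L2 (PDCD1LG2). CD70 with CD27, and CD40 with its ligand, are pairs of the TNF superfamily, ICOSLG engages ICOS, and CD47 signals to SIRPA on macrophages to block phagocytosis. On B lineage cells several of these molecules act in the reverse direction. CD40 and CD27 are receptors of the B cell itself, and MM cells often carry CD28.

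Each line had 1 list of reference peaks, in which a position and a whole number stood for each peak. That number was taken as support, meaning how many libraries held the peak. It ran from 3 to 9 in MM.1S and from 3 to 5 in RPMI8226. The lists held no reads and no value for a single library, so they do not give the depth behind a peak, and no condition could be compared with another from them. With 1 list per line there was no replicate check, and differences between the lists are given as values without a test. Intervals below are 95% Wilson intervals over peaks and cover counting error only. Since each library pools many cells, a region open in few cells and a region weakly open in many cannot be told apart. Because the MM.1S libraries came as 3 per condition, a support above 6 required at least 1 library of every condition. In RPMI8226 only a support of 5 ensured that the MONO library held the peak.

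Taken as a group, the windows of the 10 genes were open in both lines, and most of their peaks were shared. In MM.1S, 71 of 94 window peaks (75.5%, 66.0 to 83.1) overlapped an RPMI8226 peak by at least 1 bp, against 64.6% of the whole list and 66.2% of peaks in the window of any protein-coding gene. In RPMI8226, 77 of 99 (77.8%, 68.6 to 84.8) overlapped an MM.1S peak, against 62% and 65.2%. The remaining 23 MM.1S and 22 RPMI8226 peaks overlapped no peak of the other list. Among the shared peaks, 5 MM.1S peaks each overlapped more than 1 RPMI8226 peak, so a larger RPMI8226 count can also reflect where boundaries were drawn.

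A promoter peak was one within 2500 bp of any annotated transcript start, and every other peak was distal. Promoter peaks made up 40 of the 94 window peaks in MM.1S (42.6%, 33.0 to 52.6) and 45 of the 99 in RPMI8226 (45.5%, 36.0 to 55.2). The whole lists held 39.2% and 36%, and windows of any protein-coding gene 44.5% and 41.6%. Of the promoter peaks, 19 in MM.1S and 20 in RPMI8226 lay at the promoter of the gene itself and the remaining 21 and 25 at a neighbouring gene. The distal peaks numbered 54 in each line. Their shared parts were 37 in MM.1S (68.5%, against 60.0% of all distal peaks) and 39 in RPMI8226 (72.2%, against 53.7%).

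**Figure D1:**
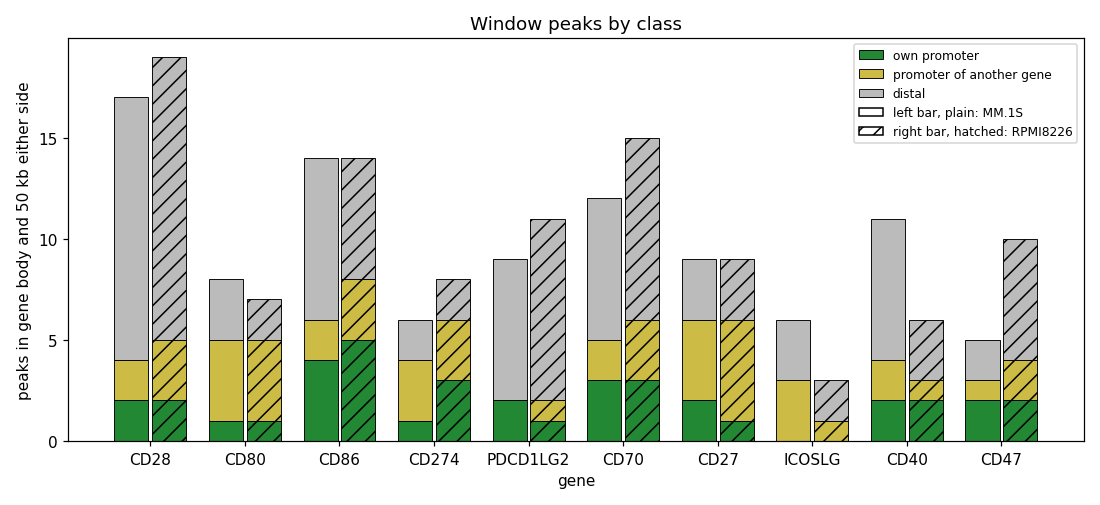
Number of window peaks per gene (vertical axis) by class, with plain bars for MM.1S and hatched bars for RPMI8226. CD28 had the most in both lines (17 and 19), and ICOSLG is the gene with no bar segment for its own promoter.

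Peaks called in every library of a line are called full-support peaks here. They were 52 of the 94 window peaks in MM.1S (55.3%, 45.3 to 65.0) and 64 of the 99 in RPMI8226 (64.6%, 54.8 to 73.4). These shares lay close to the 52% and 64.1% of the whole lists. In MM.1S, 73 window peaks had a support above 6 and so were present in at least 1 library of each culture condition. The weakest class, support 3, held 7 MM.1S peaks, and these may come from 1 condition. In RPMI8226 the class of support 3 held 22 peaks (22.2%, against 15.3% of the list).

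**Figure D2:**
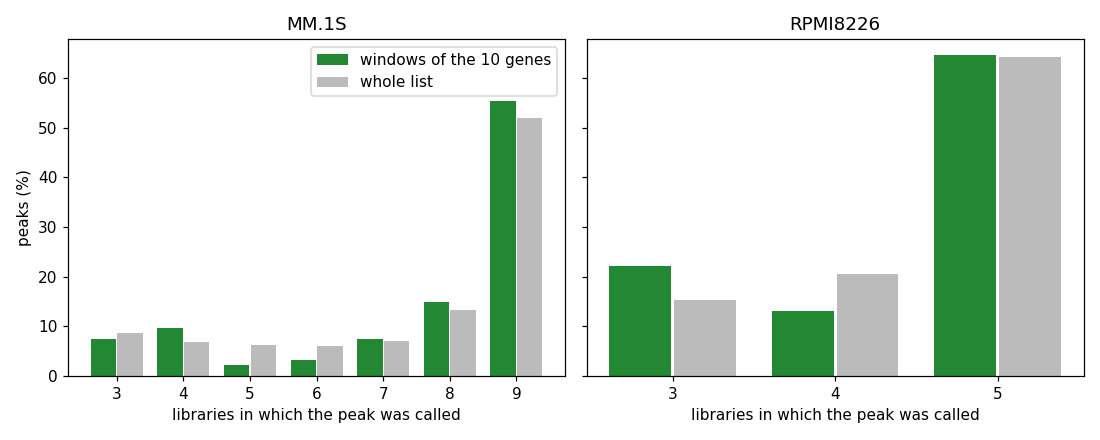
Share of peaks (%) by the number of libraries in which they were called, for the windows of the 10 genes (green) and the whole list (grey), with MM.1S on the left and RPMI8226 on the right. The highest class holds 55.3% of window peaks against 52% in MM.1S, and 64.6% against 64.1% in RPMI8226.

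The promoters of 9 of the 10 genes carried a peak in both lines, and the exception in both was ICOSLG. The background among protein-coding genes was 76.8% in MM.1S and 71.8% in RPMI8226. A promoter peak with full support was found for 7 of the 10 genes in MM.1S (69.2% of protein-coding genes) and 8 in RPMI8226 (66.5%). A stricter reading, a peak covering an annotated start site, gave 8 genes in MM.1S and 7 in RPMI8226, against 67.7% and 60% of protein-coding genes. These counts lay near what protein-coding genes show in general, and nothing particular to the group is read from them.

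**Figure D3:**
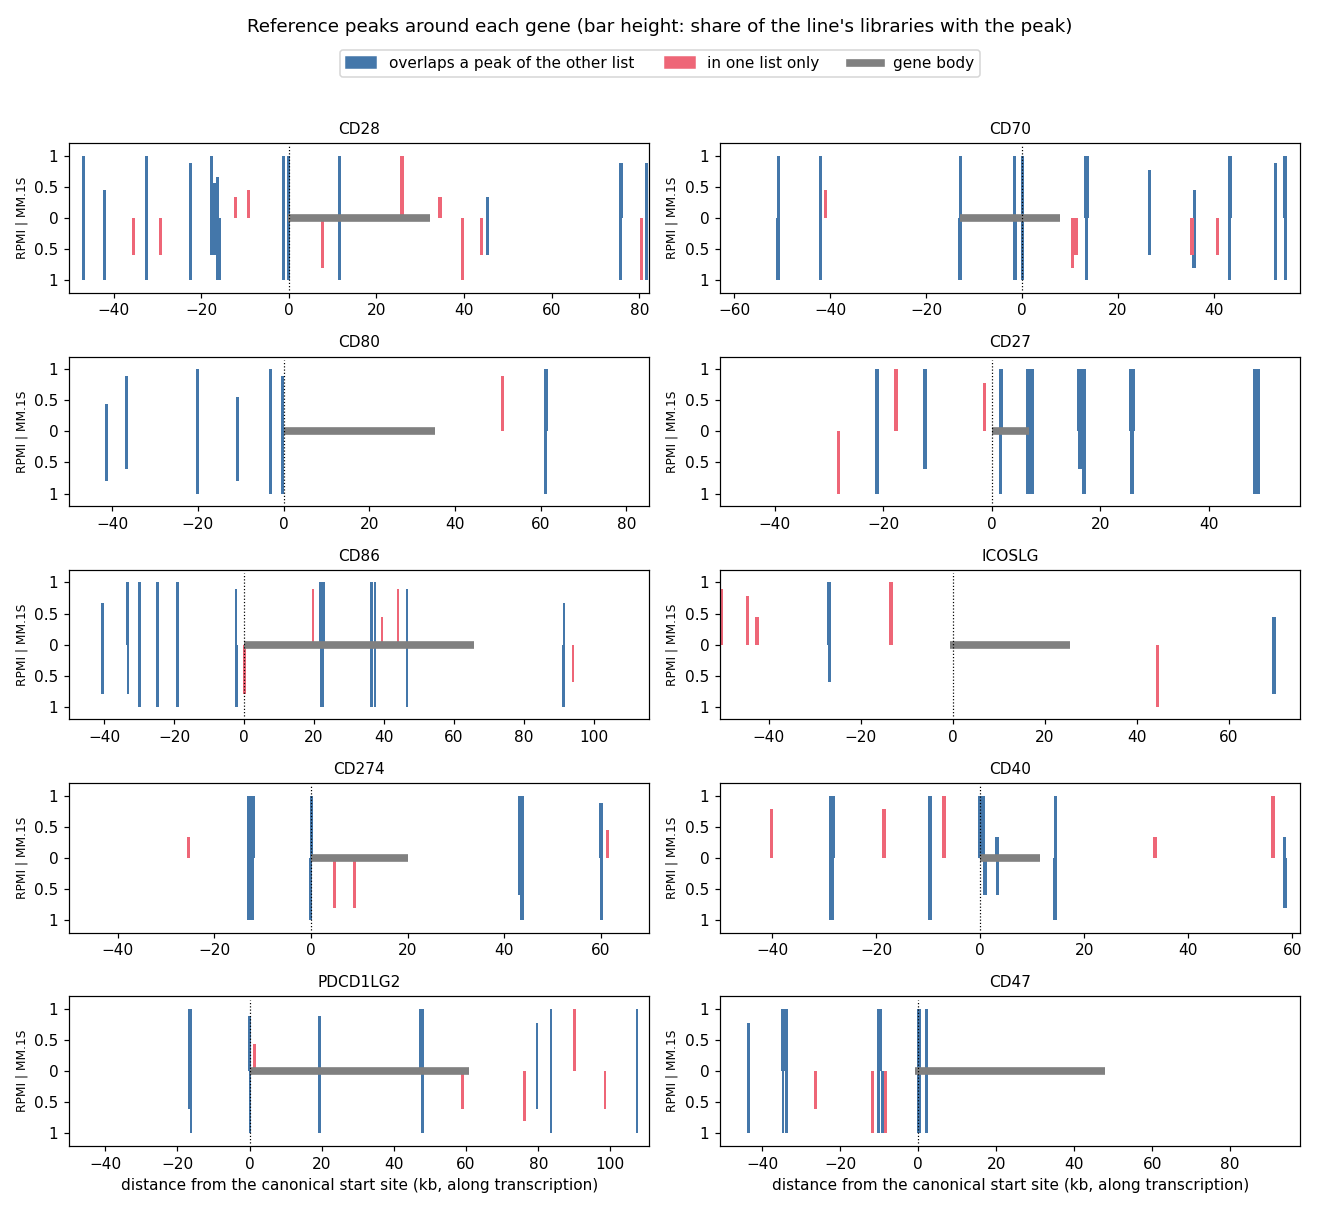
Peaks of MM.1S and RPMI8226 along the window of each gene, by distance from the main start site (kb). CD47 has no peak beyond 2.13 kb downstream of its start in either line, and the peak over the CD40 start is drawn in MM.1S alone.

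CD28 is the receptor that delivers the costimulatory signal. Its window, 132 kb on chromosome 2, held 17 peaks in MM.1S and 19 in RPMI8226, or 12.8 and 14.3 peaks per 100 kb. This density ranked at percentile 97.3 of protein-coding genes in MM.1S and 98.1 in RPMI8226, the highest of the 10 genes in both lists. The peak over the start site was 516 bp wide with support 9 of 9 in MM.1S (chr2:203706210-203706726, hg38, as deposited). In RPMI8226 it was 314 bp wide with support 5 of 5 (chr2:203706409-203706723). Both lines also had a full-support peak at -1.23 kb, 382 bp wide in MM.1S and 404 bp in RPMI8226.

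Upstream of CD28, most sites were common to both lines. A cluster near -17 kb held 3 MM.1S peaks with support 9, 5 and 6 and 3 RPMI8226 peaks with support 3, 3 and 5, the widest of them 1244 bp. Within the gene, the intronic peak at 11.6 kb had full support in both lines. The lines parted at 3 full-support distal sites. An intronic region at 25.9 kb (911 bp, 9 of 9) was in the MM.1S list alone, whereas regions at 39.7 kb (416 bp) and 80.5 kb (365 bp), both beyond the 3′ end of the gene, were in the RPMI8226 list alone with 5 of 5.

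For CD28 the sequences shown are the central 200 bases of the promoter-proximal peak common to both lines and of the RPMI8226 peak at 80.5 kb, with motif matches in capitals. All peak sequences here are on the plus strand of hg38, with the first and last base counted from 1. A match is only a description of letters and not a bound site.
CD28 at -1.23 kb, chr2:203705310-203705509, NF-kB match in capitals: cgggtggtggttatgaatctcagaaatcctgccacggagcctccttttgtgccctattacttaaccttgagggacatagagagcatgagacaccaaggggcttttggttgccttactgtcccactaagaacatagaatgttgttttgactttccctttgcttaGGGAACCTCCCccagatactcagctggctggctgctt
CD28 at 80.5 kb, chr2:203787036-203787235, ATF::CEBP match in capitals: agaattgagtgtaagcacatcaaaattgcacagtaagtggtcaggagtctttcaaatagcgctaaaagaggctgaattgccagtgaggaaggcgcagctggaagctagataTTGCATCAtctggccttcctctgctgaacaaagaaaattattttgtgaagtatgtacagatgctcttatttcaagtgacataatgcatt
The upstream sequence held an NF-kB match in either line, and NF-kB matches were in 9.10% of all MM.1S promoter peaks and 9.23% of those in RPMI8226. The site at 80.5 kb held the ATF::CEBP match TGATGNAA (read on the opposite strand), found in 4.02% of all RPMI8226 distal peaks. The CD28 promoter given by RefSeq also held a composite ETS-IRF match, GGAA, any 2 bases and GAAA, which 2.82% of 35116 promoters carried.

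CD80 and CD86 are the ligands of CD28. CD80 had 8 window peaks in MM.1S and 7 in RPMI8226, and all 7 of the latter were shared. The peak over its start was 374 bp wide with support 8 of 9 in MM.1S and 378 bp wide with 5 of 5 in RPMI8226, so 1 MM.1S library lacked it. A distal peak at -3.07 kb had full support in both lines (540 and 602 bp). In MM.1S the peak at 51.1 kb, in an intron of the neighbouring gene TIMMDC1, was the one CD80 window peak without a partner (support 8). The gene body itself held no peak midpoint in either line. Other CD80 window peaks lay at the promoters of TIMMDC1, ADPRH and PLA1A.
CD80 at -3.07 kb, chr3:119562589-119562788, NF-kB match in capitals: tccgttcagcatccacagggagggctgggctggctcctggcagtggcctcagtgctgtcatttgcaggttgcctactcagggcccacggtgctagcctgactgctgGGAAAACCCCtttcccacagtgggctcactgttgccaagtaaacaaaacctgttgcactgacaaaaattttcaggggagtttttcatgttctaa
This sequence is shown because it was the best supported distal site of CD80 in both lines, and NF-kB matches stood in 6.13% of all MM.1S distal peaks.

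CD86 differed between the lines at its most upstream start site. The window held 14 peaks in each line. A peak of 281 bp covered the start at position 122055362 of chromosome 3 in RPMI8226 (chr3:122055293-122055574, support 4 of 5), and no MM.1S peak overlapped it. A downstream start was covered in both, by a peak of 1543 bp in MM.1S (chr3:122076817-122078360, 9 of 9) and of 1147 bp in RPMI8226 (chr3:122076965-122078112, 5 of 5). A further start of the gene, near 36.4 kb, also lay under a full-support peak in both lines (688 and 381 bp). CD86 was thus open over 2 sites with annotated starts in MM.1S and 3 in RPMI8226. MM.1S alone had intronic distal peaks at 19.6 kb (support 8), 39.5 kb (support 4) and near 44 kb (support 8).

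Both RefSeq promoters of CD86, 300 bases that lie mostly upstream of the start (GRCh38.p14, plus strand), are printed to show the start that parted the lines beside the start that did not. The central sequence of a distal peak found in both lines follows.
CD86 upstream start, chr3:122055112-122055411, no motif match: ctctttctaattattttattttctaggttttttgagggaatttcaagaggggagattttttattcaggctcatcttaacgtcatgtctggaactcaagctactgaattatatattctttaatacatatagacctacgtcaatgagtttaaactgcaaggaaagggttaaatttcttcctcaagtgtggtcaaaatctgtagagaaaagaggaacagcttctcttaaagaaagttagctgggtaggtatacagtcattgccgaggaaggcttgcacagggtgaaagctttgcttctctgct
CD86 downstream start, chr3:122077534-122077833, NF-kB match in capitals: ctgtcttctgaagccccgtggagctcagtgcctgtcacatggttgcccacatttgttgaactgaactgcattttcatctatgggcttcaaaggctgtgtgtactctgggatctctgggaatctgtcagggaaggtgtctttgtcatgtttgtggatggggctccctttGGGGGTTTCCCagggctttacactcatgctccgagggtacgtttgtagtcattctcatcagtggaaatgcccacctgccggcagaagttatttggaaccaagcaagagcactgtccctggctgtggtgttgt
CD86 at 46.5 kb, chr3:122101752-122101951, AP-1 match in capitals: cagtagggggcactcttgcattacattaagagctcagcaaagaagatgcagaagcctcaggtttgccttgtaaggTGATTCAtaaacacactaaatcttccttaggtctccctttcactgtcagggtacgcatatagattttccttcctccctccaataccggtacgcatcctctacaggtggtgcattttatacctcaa
NF-kB matches were found in 11.3% of all RefSeq promoters. The peak at 46.5 kb, an intron of CD86, had support 8 of 9 and 5 of 5 and held the AP-1 match TGANTCA, found in 12.4% of all distal peaks in MM.1S. In all AP-1 matches and shares here the central N was any base, and it is T in this match.

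CD274 and PDCD1LG2 encode the ligands of PD-1. Their main start sites lie 60.0 kb apart on chromosome 9, so their windows overlap, and 3 peaks of each line were counted in both. The CD274 start lay under a full-support peak in both lines, 663 bp wide in MM.1S (chr9:5450279-5450942) and 336 bp in RPMI8226 (chr9:5450332-5450668). RPMI8226 alone had intronic peaks at 4.85 kb and 8.97 kb, both with support 4 of 5 and both within 2500 bp of other annotated CD274 starts. CD274 therefore had 3 peaks at its own promoters in RPMI8226 and 1 in MM.1S. The RefSeq promoter of CD274 carried a STAT match, TTCNNNGAA (7.66% of promoters), and a match to the interferon-stimulated response element (ISRE), GAAA, any 2 bases and GAAA (3.57%).
CD274 at 8.97 kb, chr9:5459411-5459610, NF-kB match and then AP-1 match in capitals: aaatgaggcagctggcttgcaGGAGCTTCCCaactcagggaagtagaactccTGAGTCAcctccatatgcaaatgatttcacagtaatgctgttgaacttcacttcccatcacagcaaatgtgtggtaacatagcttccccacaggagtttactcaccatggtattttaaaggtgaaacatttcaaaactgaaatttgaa
This intronic RPMI8226 peak is shown as one of the sites that set the CD274 windows of the lines apart. AP-1 matches were in 11.6% of all RPMI8226 promoter peaks, the class to which it belonged.

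Between the PD-1 ligand genes, both lines were open near 43 kb from the CD274 start. MM.1S had there 1 peak of 1207 bp with 9 of 9, which spanned 2 RPMI8226 peaks of 525 bp (3 of 5) and 505 bp (5 of 5). The PDCD1LG2 start was covered in both lines, by 868 bp with support 8 of 9 in MM.1S and 502 bp with 5 of 5 in RPMI8226. A further peak at 1.36 kb was in MM.1S alone and weaker, with support 4. PDCD1LG2 had distal peaks in both lines at 19.4 kb and, with full support in either line, near 83.5 kb and 107 kb. Its widest MM.1S peak, 1269 bp at 47.6 kb in an intron (9 of 9), overlapped an RPMI8226 peak of 358 bp at 47.9 kb (5 of 5). The full-support region at 90.0 kb (449 bp) was in the MM.1S list alone.

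CD70, a TNF family ligand, had the same promoter layout in both lines. It lies on the minus strand of chromosome 19. The main start was under peaks of 700 bp (9 of 9) in MM.1S and 660 bp (5 of 5) in RPMI8226, and an upstream start was under peaks at -12.9 kb (442 bp) and -13.0 kb (303 bp), again with full support. Another promoter peak, between the starts, was found in both lines (697 and 751 bp, full support). The window held 12 peaks in MM.1S and 15 in RPMI8226, at density percentiles 90.2 and 95.8. Of these, 11 were shared in each line. The peaks without a partner were 1 MM.1S peak with support 4 and 4 RPMI8226 peaks with support 3 or 4, so every full-support peak near CD70 was found in both lines.

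CD27 is the receptor of CD70. Its promoter was open in both lines downstream of the start at 1.67 kb in MM.1S (696 bp, 9 of 9) and 1.58 kb in RPMI8226 (404 bp, 5 of 5). Both peaks also lay within 2500 bp of a start of the antisense gene CD27-AS1. Neither list had a peak over a GENCODE start of CD27. MM.1S alone had a peak at -1.36 kb (chr12:6443384-6443800, 416 bp, 7 of 9). RefSeq places the CD27 promoter further upstream, at chr12:6443642-6443941, and this MM.1S peak overlapped it while no RPMI8226 peak did. Which gene the peaks at 1.67 kb and 1.58 kb belong to cannot be told from position.

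Further from CD27, a full-support distal peak at -17.7 kb (690 bp) was in MM.1S alone and one at -28.2 kb (401 bp) in RPMI8226 alone. The peak at -21.1 kb was common to both with full support. Downstream, 4 MM.1S and 5 RPMI8226 peaks lay at the promoters of TAPBPL, VAMP1, and MRPL51 with NCAPD2. The sequence below comes from the MM.1S promoter peak with no RPMI8226 partner.
CD27 at -1.36 kb, chr12:6443493-6443692, AP-1 match in capitals: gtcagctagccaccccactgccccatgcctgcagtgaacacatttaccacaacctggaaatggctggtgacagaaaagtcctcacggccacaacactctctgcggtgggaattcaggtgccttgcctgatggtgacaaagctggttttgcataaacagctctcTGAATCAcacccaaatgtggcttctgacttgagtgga
AP-1 matches were in 6.24% of all MM.1S promoter peaks and in 7.71% of RefSeq promoters.

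CD40, the TNF receptor through which helper T cells activate B cells, differed between the lists at its start site. In MM.1S a peak of 1393 bp with support 9 of 9 covered the start (chr20:46117861-46119254). The nearest RPMI8226 peak was 189 bp wide with support 3 of 5 (chr20:46119106-46119295), had its midpoint at 0.886 kb inside the gene, and did not reach the start. It overlapped the MM.1S peak by 148 bp, or 10.6% of the MM.1S width, and was therefore counted as shared. CD40 was the 1 gene of the 10 with a peak over any of its start sites in MM.1S and over none in RPMI8226. This state was found in 9.89% of protein-coding genes. The reverse state was found in 2.2% of protein-coding genes and in none of the 10. CD86, whose most upstream start was covered in RPMI8226 alone, does not count here because other starts of it were covered in both lines.

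The CD40 window held 11 peaks in MM.1S and 6 in RPMI8226, at density percentiles 89.9 and 59.8. All 6 RPMI8226 peaks had an MM.1S partner, while 5 MM.1S peaks had none. Among the latter, those at -6.93 kb (430 bp) and 56.3 kb (452 bp) had full support. Both lines had full-support distal peaks near -9.7 kb and 14.4 kb. The RPMI8226 promoter peaks of CD40, at 0.886 kb and 3.30 kb, both had support 3, the minimum for entry to the list.

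ICOSLG, the ligand of ICOS, had no promoter peak in either list, and its promoter is made of sequence that is not unique in the genome. Of the 50-base words within 2500 bp of its 14 annotated starts, 100% occurred more than once in hg38. The corresponding share was 0.377% to 11.3% in the other 9 genes. Across the gene body the share was 95.3%. Since the authors left out reads mapping to several places, a closed promoter and the removal of such reads cannot be told apart there. A copy of the 300 bases around the start stands elsewhere on the same chromosome, at chr21:5022404-5022703, and it too had 0 peaks in both lists.
ICOSLG RefSeq promoter, chr21:44240894-44241193, minus strand, GRCh38.p14, no motif match: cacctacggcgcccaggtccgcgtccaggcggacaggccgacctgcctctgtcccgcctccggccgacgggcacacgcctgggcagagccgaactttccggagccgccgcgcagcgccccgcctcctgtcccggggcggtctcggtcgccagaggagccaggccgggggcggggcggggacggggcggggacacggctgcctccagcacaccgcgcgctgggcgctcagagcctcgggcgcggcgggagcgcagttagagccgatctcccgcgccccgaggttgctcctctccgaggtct
The promoter is printed as a stretch that no 50-base word places at 1 position.

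Over the whole ICOSLG window, 86 of 126 bins of 1 kb were mostly made of repeated words, and 1 MM.1S and 2 RPMI8226 peaks lay between the first and the last of these bins. MM.1S had 6 and RPMI8226 had 3, and 2 of each were shared, at 69.9 kb and near -26.8 kb. MM.1S alone had a full-support distal peak at -13.4 kb (857 bp) and 3 peaks at promoters of AIRE with support 4, 7 and 8. ICOSLG was the 1 gene of the 10 with at least 2-fold more window peaks in MM.1S, as were 7.55% of 18091 genes with at least 4 window peaks. The ratio ended with other flanks, at 1 and 1 peaks with 25 kb and 18 and 11 with 100 kb.

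**Figure D4:**
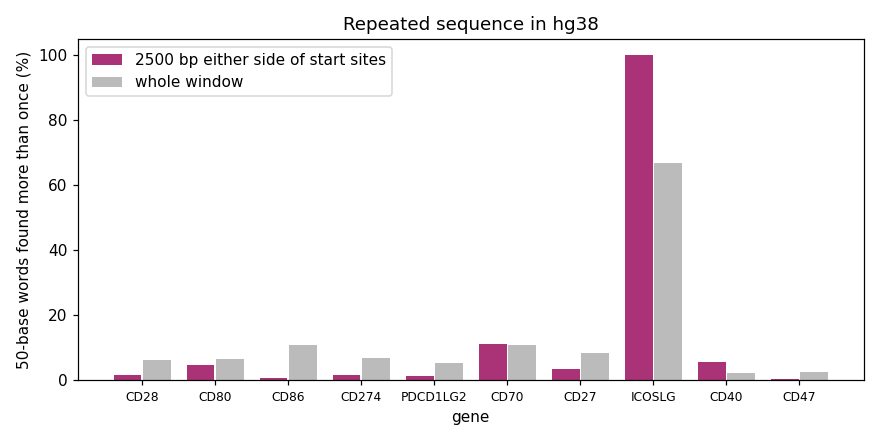
Share (%) of 50-base words that occur more than once in hg38, for the promoters and the whole window of each gene. ICOSLG reaches 100% at its promoters, and the other 9 genes lie at or under 11.3% there.

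CD47, the signal that restrains phagocytosis, had an open promoter in both lines. Its window peak density ranked at percentile 39.7 of protein-coding genes in MM.1S and 71.1 in RPMI8226. The start was covered by 1114 bp in MM.1S (chr3:108090305-108091419, 9 of 9) and 977 bp in RPMI8226 (chr3:108090403-108091380, 5 of 5). An intronic peak at 2.10 kb in MM.1S and 2.13 kb in RPMI8226 also had full support. Beyond it, neither list had a peak in the rest of the 48.8 kb gene or the 50 kb downstream, so all other peaks lay upstream. MM.1S had 3 upstream peaks and RPMI8226 had 8.

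The upstream region near -10 kb was 1 MM.1S peak of 1064 bp, and in RPMI8226 a set of 4 full-support peaks at -8.47, -9.29, -10.1 and -11.7 kb. The MM.1S peak contained the one at -10.1 kb and met the one at -9.29 kb by 5 bp of its 324 bp, while the outer 2 overlapped no MM.1S peak. The peak near -34.3 kb in MM.1S (1719 bp), at the promoter of LINC01215, overlapped 2 RPMI8226 peaks. With 5 window peaks in MM.1S and 10 in RPMI8226, CD47 was the 1 gene with at least 2-fold more in RPMI8226, as were 8.06% of genes. The ratio was also 2-fold with flanks of 25 kb (3 and 6 peaks), where CD274 passed it too (3 and 7), and it ended with 100 kb (7 and 13). Chromosome 3 as a whole had 4802 MM.1S and 6329 RPMI8226 peaks, a ratio of 1.32, and its part in the CD47 difference was not tested.
CD47 at 2.10 kb, chr3:108088831-108089030, ISRE match in capitals: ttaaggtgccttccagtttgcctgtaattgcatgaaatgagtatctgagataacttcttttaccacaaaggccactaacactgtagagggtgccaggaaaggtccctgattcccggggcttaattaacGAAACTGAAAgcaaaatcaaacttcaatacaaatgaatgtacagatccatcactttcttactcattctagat
CD47 at -9.98 kb, chr3:108100908-108101107, ETS-IRF match and then NF-kB match in capitals: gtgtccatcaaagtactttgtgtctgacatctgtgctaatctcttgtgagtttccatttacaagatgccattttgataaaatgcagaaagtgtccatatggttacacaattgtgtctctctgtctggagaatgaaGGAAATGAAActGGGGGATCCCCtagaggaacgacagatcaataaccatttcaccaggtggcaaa
These show the intronic site common to both lines, whose ISRE match was present in either list, and the upstream MM.1S peak in the region where RPMI8226 had 4. ISRE matches were in 4.03% of all MM.1S promoter peaks and ETS-IRF matches in 4.12% of all MM.1S distal peaks.

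Among genes with a start-site peak in both lines, MM.1S had the wider peak at 6 of 7 members, the exception being CD80 (374 against 378 bp). The median widths were 700 bp and 502 bp. This followed the lists, since the MM.1S peak was wider in 89.9% of the 11573 protein-coding genes with a start-site peak in both, with medians of 1100 and 808 bp. The start-site peaks of CD28, CD80, CD274, PDCD1LG2 and CD70 lay below these medians in both lines, while those of CD86 and CD47 exceeded them.

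**Figure D5:**
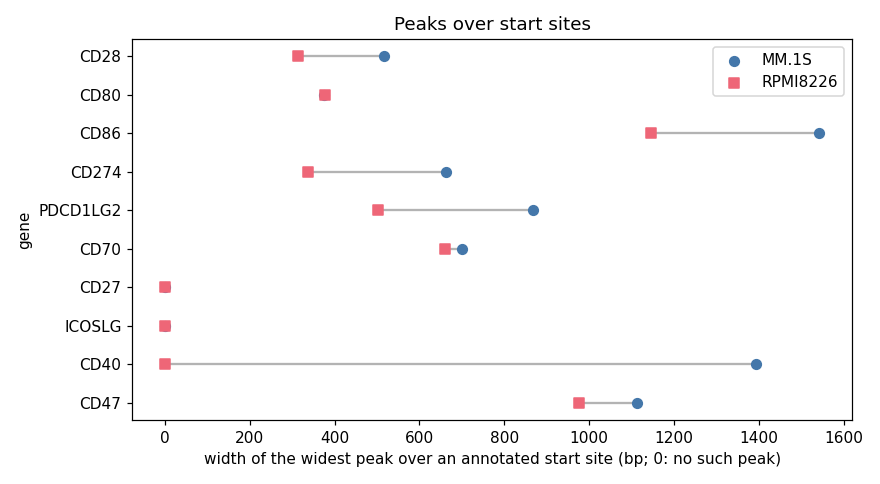
Width (bp) of the widest peak covering a start site of each gene in MM.1S and RPMI8226, with 0 where no peak covers one. CD40 has 1393 bp in MM.1S and none in RPMI8226, and CD27 and ICOSLG have none in either line.

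Distal full-support peaks found in only 1 list lay in the windows of 5 genes in MM.1S (CD28, PDCD1LG2, CD27, ICOSLG and CD40) and 3 genes in RPMI8226 (CD28, CD27 and CD47). Of protein-coding genes, 21.4% had such a peak in MM.1S and 36.3% in RPMI8226. CD28 and CD27 thus had such sites in each list, and CD80, CD86, CD274 and CD70 had none. A list can lack a peak that fewer than 3 of its libraries held.

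Motif matches, searched on both strands in the central 200 bases, were spread over the windows. In RPMI8226 distal peaks, AP-1 stood in 13 of 54 (24.1%, 14.6 to 36.9), against 21.1% of all distal peaks. In MM.1S distal peaks it stood in 5 of 54 (9.26%, 4.02 to 19.9), against 12.4%. At promoter peaks the AP-1 shares were 7 of 40 in MM.1S (17.5%, 8.75 to 31.9, against 6.24%) and 8 of 45 in RPMI8226 (17.8%, 9.29 to 31.3, against 11.6%). The ISRE pattern was in 7 of 54 MM.1S distal peaks (13.0%, 6.42 to 24.4, against 8.64%) and 8 of 54 in RPMI8226 (14.8%, 7.70 to 26.6, against 7.47%). NF-kB matches were in 8 of 45 RPMI8226 promoter peaks (17.8%, 9.29 to 31.3, against 9.23%) and 5 of 40 in MM.1S (12.5%, 5.46 to 26.1, against 9.10%). STAT matches were in 3.70% of distal peaks in each line, against 5.78% in MM.1S and 5.95% in RPMI8226. At promoter peaks they were in 7.50% and 8.89%, against 4.00% and 4.34%. ETS-IRF matches were in 9.26% of MM.1S distal peaks (against 4.12%) but 1.85% in RPMI8226 (against 5.17%). ATF::CEBP matches were in 7.41% of distal peaks in each line, against 3.78% and 4.02%. CTCF, also searched, matched 1 MM.1S distal peak and no other. ISRE and ETS-IRF share their final GAAA but differ in the first 4 bases, so they cannot match the same bases on the same strand. Within a line, a peak lying in overlapping windows was counted once. Shared peaks repeat sequence between the lines, and the shares are descriptions of few peaks.

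The receptors and ligands on the other side of these pairs were read the same way. CTLA4, which lies next to CD28 on chromosome 2, had a promoter peak with full support in both lines, as did PDCD1 and SIRPA. ICOS had none in either line, and CD40LG had one in RPMI8226 alone (5 of 5). By the stricter reading, a peak covered a start site of SIRPA in both lines. For PDCD1 and CD40LG this held in RPMI8226 alone, and for CTLA4 and ICOS in neither line. Of a list of 42 other genes of costimulation and checkpoints, 32 had a promoter peak in MM.1S and 32 in RPMI8226, close to the shares of protein-coding genes given above. They were shared by 28 genes, absent in both for ICOS, BTLA, VTCN1, CD2, CD200 and SIGLEC10, in MM.1S only for TNFRSF4, TNFSF14, FGL1 and CD24, and in RPMI8226 only for TNFSF4, TNFRSF9, TNFSF18 and CD40LG.

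As a check of the labelled cell type, all 10 plasma cell markers, among them SDC1, TNFRSF17, PRDM1 and IRF4, had a promoter peak in both lines. Across protein-coding genes the share was already 76.8% for MM.1S and 71.8% for RPMI8226, so this full count is weak evidence of identity. Of 6 T cell markers, CD6 alone had one in either line, and CD3D, CD3E, CD3G, CD2 and CD5 had none. B cell markers had a promoter peak in 5 of 6 in MM.1S and 3 of 6 in RPMI8226. With so few markers, the MM.1S counts hardly separate plasma cell from B cell identity. Stromal markers had one in 6 of 10 in MM.1S and 4 of 10 in RPMI8226. COL1A1, with support 9 of 9 and 5 of 5, and COL1A2, DCN and PDGFRA had one in both lines. TWIST1 and PRRX1 had one in MM.1S alone, with support 9 and 8 of 9, and THY1, COL3A1, LUM and FAP had none in either. The part of remaining HS5 cells in the peaks of the 10 genes was not tested.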

How the data were processed

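Omni-ATAC libraries of MM.1S (9) and RPMI8226 (5) were grouped by line and culture condition from their titles. The authors aligned paired-end reads to hg38 with Bowtie2, removed reads mapping to several places and duplicates, and called peaks with MACS3 (tool versions, peak threshold, rule for joining peaks between libraries and transposase offset not given in the sources used here). Per the study's methods, a reference peak was present in at least 3 libraries. The deposited lists give 1 whole number per peak in another unit than reads, read here as a count of libraries from its range. Whether deposited starts count from 0 or 1 is not stated, which can shift a start by 1 base.

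Genes and start sites came from GENCODE release 44, and promoter sequences from RefSeq (GRCh38.p14), which matched 7 of the 10 genes; PDCD1LG2, CD70 and CD40 were not matched. The distance of a peak was from its midpoint to the main start. Python 3.11.15, NumPy 2.4.6, SciPy 1.17.1, pysam 0.24.0 and Matplotlib 3.10.9 were used. The promoter, window and overlap counts were tested on simulated data, and the support counts were not. No test was run, since 1 list per line has no replicates. Regions were named by a rule: the best supported promoter peak of each gene and list, and distal full-support peaks without a partner, beside others chosen after their values were seen. The printed sequences were also chosen after their motif matches were seen. Some sequences are not reported here. The genes and lists were chosen with earlier results of these data known. Read totals in the study's supplement were not used. Other flanks, promoter widths, start sites, overlaps and support minimums were tried.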

Additional observations from a re-analysis of the deposited data

How the results depend on the processing

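Of 51 alternatives to the summary values, 37 stayed within the spread or within 1.5 times of the reported value and 14 did not. A flank of 25 kb gave 60 window peaks in MM.1S and 62 in RPMI8226, and one of 100 kb gave 149 and 162. Restricting to peaks called in every library left 52 and 64 window peaks and raised the shared share to 88.5% and 90.6%. Requiring an overlap of at least 50% of both peaks lowered it to 59.6% and 57.6%. The shared share of the whole lists was not computed under either rule. These values therefore cannot be set against the 64.6% and 62% given above. With protein-coding starts only, the promoter share was 31.9% and 28.3%, and with promoters of 1000 bp it was 35.4% in RPMI8226. With MM.1S peaks of at least 6 libraries, 68.4% had full support, a share that this filter can only raise. Leaving out the PDCD1LG2 window, an alternative chosen after seeing the data, gave 88 and 91 window peaks. No paired analysis was possible because the lists hold no value for a single library, and for the same reason no replicate could be left out. The lists do not give depth and the libraries' read totals were not used, so the part of depth in a missing peak was not tested, and the cutoffs of 3 of 9 and 3 of 5 libraries differ between the lines.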
